A study of Rattus norvegicus with 8 samples.

Results

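The genes described here are those of the cell cycle and of DNA replication: cyclins and their kinases, the replicative helicase, enzymes of the replication fork and of nucleotide supply, topoisomerase, mitotic kinases, and proteins of the spindle checkpoint and kinetochore. The list has 36 symbols, and a gene was taken where the deposited tables carry its symbol. That gave 32 of the 26405 genes in each of 2 tables, of which 18310 carry a symbol. No row bears the symbol Mki67, Ccnb2, Ccnd2 or Rrm2.

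The samples came from embryonic rat hippocampal neurons kept for 10 to 14 days in microfluidic chambers, in which axons cross narrow channels into a compartment apart from that of the cell bodies. Either vehicle (control) or soluble oligomers of Abeta(1-42), the amyloid peptide, reached the axons alone for 24 h. RNA of each compartment was sequenced on a MiSeq, in 4 groups of 2 samples: axons Abeta, axons control, soma Abeta and soma control. All groups share the same kind of culture and chamber, and the labels name no genotype, strain or sex. Whether the duplicates are separate cultures is not stated, so the p-values reflect the spread among these samples alone, and that spread may be technical.

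Each deposited table holds, for 1 compartment, the authors' DESeq2 comparison of Abeta and control. Which treatment forms the numerator of the fold change is not written in the headers. Genes with a log2 fold change above 0 are accordingly called positive-side and those below 0 negative-side genes, with no treatment attached to either name. Nor is it stated whether the negative side stands for the same treatment in both tables. The tables have no column per sample, but the whole reads of the 4 libraries of a compartment could be solved from the digits of the deposited means. These libraries are known by their side alone, are numbered 1 and 2 by falling size factor, and enter no test. Values per library are normalized counts (reads divided by the size factor, not corrected for gene length), given in the order library 1, library 2.

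Proliferating cells pass from G1, when D-type cyclins with Cdk4 and Cdk6 release E2F factors from the retinoblastoma protein, through S phase, when cyclins E and A with Cdk2 and the MCM helicase drive DNA synthesis, to mitosis, when Cdk1 with B-type cyclins, Aurora and Polo kinases and the spindle checkpoint separate the chromosomes. Most S phase and mitotic transcripts are made mainly in dividing cells. Neurons leave the cycle before they grow axons, whereas glia, fibroblasts and progenitors of a hippocampal culture can go on dividing, and D-type cyclins and Cdk4 are also transcribed in cells that do not divide.

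Promoters of such genes commonly carry CCAAT boxes, bound by the factor NF-Y, CHR elements (TTTGAA or TTCGAA), through which the DREAM complex silences them outside the dividing state, and E2F sites (TTTGGCGC, TTTCCCGC or TTTGGCGG). Of the 32 genes, 24 have an entry in the RefSeq promoter table of assembly GRCr8, and the 250 bases before the start were searched for these letters on both strands. TTCGAA is its own reverse complement and was counted once per position. CCAAT was present in 16 of 24 (66.7%) against 34.0% of all 33469 promoters of that length, TTTGAA in 5 (20.8% against 16.2%) and TTCGAA in 4 (16.7% against 1.40%). TTTGGCGC was found in 3, Mcm5, Mcm6 and Tyms (12.5% against 0.412%), TTTCCCGC in Mcm5 and Mcm7 (8.33% against 0.813%), and TTTGGCGG in 0 (0.385% of all). A CCAAT together with TTTGAA or TTCGAA stood in 6 of the 24, Birc5, Cdc20, Cdk1, Mcm7, Rrm1 and Top2a (25.0% against 6.31%). These matches describe letters, not bound sites. The windows of 4 genes follow, 5′ to 3′ on the strand of the gene, with matches in capitals. Top2a and Mcm7 are shown because in both compartments every negative-side library lay above every positive-side one. Where the mean reached 5, 22.5% of recovered genes had that order in axons and 8.63% in soma. The share with it in both was not counted, and the negative side may not be the same treatment in both. Cdk1 is shown because it has more matches than the other mitotic kinase genes, and Mcm5 because it holds both E2F sequences found. The windows are chr10:84473094-84473343 on the minus strand for Top2a, chr12:22163179-22163428 on the minus strand for Mcm7, chr20:19265043-19265292 on the plus strand for Cdk1 and chr19:13488563-13488812 on the plus strand for Mcm5.
Top2a: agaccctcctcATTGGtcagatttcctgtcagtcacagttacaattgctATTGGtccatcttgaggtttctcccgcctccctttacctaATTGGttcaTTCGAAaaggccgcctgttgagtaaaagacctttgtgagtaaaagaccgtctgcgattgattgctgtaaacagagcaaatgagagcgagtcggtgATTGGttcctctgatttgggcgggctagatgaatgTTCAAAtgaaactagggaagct
Mcm7: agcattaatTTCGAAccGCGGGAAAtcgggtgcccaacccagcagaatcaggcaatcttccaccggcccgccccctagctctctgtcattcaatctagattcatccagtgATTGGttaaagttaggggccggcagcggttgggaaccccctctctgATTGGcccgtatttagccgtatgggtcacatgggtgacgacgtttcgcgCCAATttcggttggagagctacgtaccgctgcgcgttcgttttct
Cdk1: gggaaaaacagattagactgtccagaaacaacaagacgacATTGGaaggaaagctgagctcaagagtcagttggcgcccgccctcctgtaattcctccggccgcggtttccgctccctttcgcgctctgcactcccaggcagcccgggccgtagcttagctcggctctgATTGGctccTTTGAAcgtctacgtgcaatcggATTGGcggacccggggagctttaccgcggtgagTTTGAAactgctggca
Mcm5: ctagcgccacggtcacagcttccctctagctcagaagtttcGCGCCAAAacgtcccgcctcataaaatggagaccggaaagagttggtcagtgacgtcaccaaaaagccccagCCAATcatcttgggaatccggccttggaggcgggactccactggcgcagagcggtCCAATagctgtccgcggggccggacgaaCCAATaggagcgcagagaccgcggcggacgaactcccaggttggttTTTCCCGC
Capitals that read otherwise than the listed motifs are their reverse complements, such as ATTGG for CCAAT, and no matches of different motifs overlap in these windows. Top2a held 4 CCAAT boxes and both CHR forms, and Mcm7 held 3 CCAAT boxes, TTCGAA and TTTCCCGC. In Cdk1 there were 3 CCAAT boxes and 2 copies of TTTGAA, the nearest of them beginning 16 bases before the start. Mcm5 held 3 CCAAT boxes and both of its E2F sequences, and neither CHR form.

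Reads behind these genes were few. Recovered reads (genes with a mean under 500) numbered 207879 to 392947 per axonal library, and 1 read is worth 0.756 to 1.35 normalized counts there. In soma each side had a deep library (2418243 and 3268364 reads) and a shallow one (234820 and 259252), in which 1 read is worth 3.37 and 3.13 normalized counts. Size factors of the axonal libraries also separated the sides, at 1.32 and 1.28 on the positive and 0.952 and 0.740 on the negative side. The 32 genes had mean normalized counts of 0.714 to 56.1 in the authors' deposited axonal table and of 3.55 to 107 in the somatic one.

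The first question was whether transcripts of the cell cycle in the axonal compartment differed between Abeta and control. None of the 32 genes had an adjusted p below 0.05 in the DESeq2 results of the authors, where 304 of the 1321 genes given one did (23%). Only Ccnd1 had a mean high enough for the authors' deposited table to give it an adjusted p, so for the other 31 the table holds no call in either direction. At an unadjusted p under 0.05 there was 1 of 32, Ccne2, against 1063 of all 23879 genes with reads (4.45%). Within this limit the G1 genes lay on the other side of 0 from most S phase and mitotic genes. All 4 G1 genes with a row had deposited fold changes above 0, while 24 of the other 28 lay below 0. Their levels differed too, as the mean reached 10 in all 4 G1 genes and in 8 of the other 28. Over all genes, 64.1% lay below 0 at means of 5 to 10, 50.1% at 10 to 20 and 34.1% at 20 to 60. Whether role or level goes with the sign was not tested.

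The plot of axonal counts by library shows all 32 genes in the order of their roles.

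**Figure D1:**
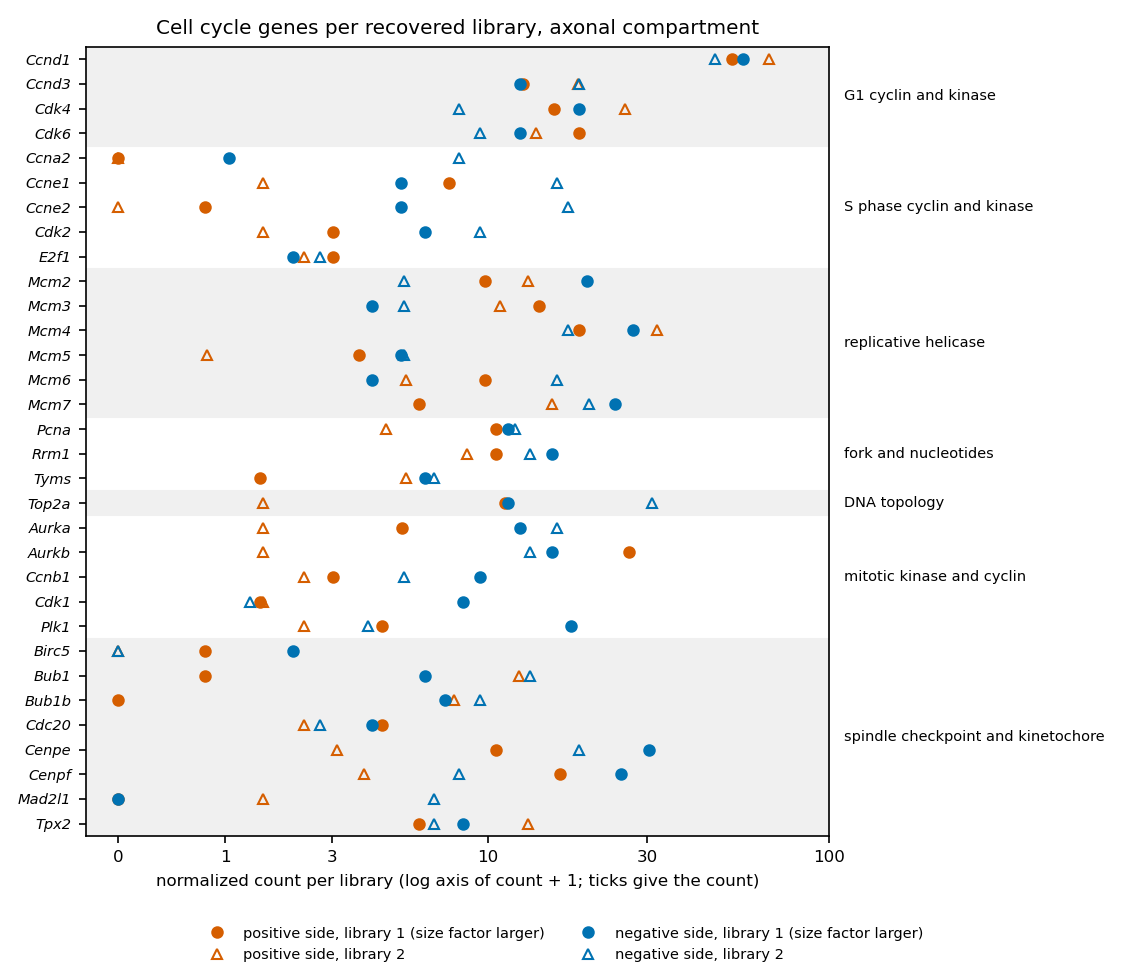
Normalized count of each gene (rows, grouped by role) in the 4 recovered axonal libraries, on a log axis of the count plus 1; orange marks are the positive-side and blue marks the negative-side libraries, filled for library 1 and open for library 2. The 4 libraries of Ccnd1 lie between 47.3 and 67.3, and blue marks lie right of both orange ones for Aurka, Cenpe, Ccne2 and Rrm1, among others, and left of them for Cdk6 and Mcm3.

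The G1 genes encode the D-type cyclins and their kinases. Ccnd1, cyclin D1 (ENSRNOG00000020918), had 52.9 and 67.3 normalized counts on the positive and 56.7 and 47.3 on the negative side. The sides overlapped, and its log2 fold change in the authors' deposited table is 0.19 (SE 0.56, adjusted p = 0.844, DESeq2). Cdk4, the kinase partner of D-type cyclins, had 15.9 and 25.8 on the positive and 18.9 and 8.10 on the negative side, which also overlapped. Ccnd3, cyclin D3, had 12.8 and 18.8 against 12.6 and 18.9. Both sides thus held 1 lower and 1 higher library of nearly equal level. Cdk6, the other kinase of the D-type cyclins, had 18.9 and 14.1 on the positive and 12.6 and 9.45 on the negative side, with no overlap. The authors' deposited table puts Cdk4 at 0.50 (SE 0.82), Cdk6 at 0.46 (SE 0.85) and Ccnd3 at 0.01 (SE 0.82) on the log2 scale. Summed over the 4 genes, the libraries held 100.5 and 126 against 101 and 83.7 normalized counts, a ratio of the negative to the positive side of 0.815, or 0.733 to 0.918 with 1 library left out in turn.

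Of the 5 genes of S phase entry, 4 had fold changes below 0 and E2f1 one above it, all on very few reads and none of them called. Ccne2, cyclin E2 (ENSRNOG00000008055), which activates Cdk2 at the start of S phase, had 1 and 0 reads (0.756 and 0 normalized counts) on the positive side and 5 and 13 reads (5.25 and 17.6) on the negative side. In the authors' deposited table it stood at -2.54 (SE 1.05) on the log2 scale, with an unadjusted p of 0.0153 from DESeq2, no adjusted p, and an adjusted p of 0.682 when p-values were adjusted over every gene with reads. Divided by the summed size factors of each side, its reads were 27.7-fold higher on the negative side. The exact 95% counting interval was 4.37 to 1153 and covers counting error only. Cdk2 itself had 3.02 and 1.57 against 6.3 and 9.45 normalized counts, so that its sides did not overlap either. Ccne1, cyclin E1, had 7.56 and 1.57 on the positive and 5.25 and 16.2 on the negative side, which overlapped. The authors' deposited table gives Cdk2 a log2 fold change of -1.09 (SE 1.03) and Ccne1 one of -0.83 (SE 0.99). Ccna2, cyclin A2 of S phase and G2, had 0 reads in both positive-side libraries and 1 and 6 on the negative side. With a floor of 3 reads put in for the positive side, the 7 negative-side reads gave a 3.59-fold higher level after the same scaling. Counting error of those 7 reads is not part of that value. E2f1, the transcription factor that opens S phase, had 4 and 3 reads against 2 and 2, and its sides overlapped in normalized counts (log2 fold change 0.08, SE 1.06, in the authors' deposited table). Summed counts of the 5 genes were 14.4 and 5.48 on the positive and 20 and 54.0 on the negative side. The ratio of the sides was 3.73 and ran from 2.01 to 6.75 as each library was left out.

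The helicase genes did not share a side. Mcm2 to Mcm7 encode the ring that unwinds DNA at the fork. Mcm7 (ENSRNOG00000001349) had 6.05 and 15.7 normalized counts on the positive and 24.2 and 20.3 on the negative side, without overlap. Mcm3 had 14.4 and 11 against 4.2 and 5.40, also without overlap but the other way round. These opposite genes stand in the authors' deposited table at -0.85 (SE 0.82) for Mcm7 and 1.02 (SE 0.95) for Mcm3, the highest value of the 32. Mcm4 had 18.9 and 32.1 against 27.3 and 17.6 normalized counts. Mcm2 had 9.83 and 13.3 against 20 and 5.40, and Mcm6 9.83 and 5.48 against 4.2 and 16.2. The sides overlapped in these 3 genes, whose log2 fold changes in the authors' deposited table were 0.15, -0.11 and -0.29 in the same order. Mcm5 had 5 and 1 reads against 5 and 4. Over the 6 subunits the sums were 62.7 and 78.3 against 85.1 and 70.2 normalized counts. The sides overlapped, and their ratio of 1.10 ran from 0.992 to 1.24 with 1 library left out.

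At the fork and in nucleotide supply the 3 genes with a symbol in the tables had fold changes below 0, none of them called. Pcna, the sliding clamp of DNA polymerases, had 10.6 and 4.70 normalized counts on the positive and 11.6 and 12.2 on the negative side. Rrm1, the large subunit of ribonucleotide reductase, had 10.6 and 8.61 against 15.8 and 13.5. Tyms, thymidylate synthase, had 1.51 and 5.48 against 6.3 and 6.75. No library of the positive side reached the negative side in any of the 3, an order that 22.5% of all recovered genes showed where their mean reached 5. The distances were small, with 10.6 and 11.6 the nearest libraries of Pcna. Rrm2, the small subunit of ribonucleotide reductase, whose row has no symbol, overlapped between the sides at 6.80 and 0.783 against 3.15 and 13.5. The authors' deposited table gives log2 fold changes of -0.47 (SE 0.92) for Pcna, -0.48 (SE 0.87) for Rrm1 and -0.55 (SE 1.03) for Tyms, each less than 1 standard error from 0. Top2a (ENSRNOG00000032404), the topoisomerase that untangles replicated chromosomes, had 11.3 and 1.57 normalized counts (15 and 2 reads) on the positive and 11.6 and 31.1 (11 and 23 reads) on the negative side. Its nearest libraries, 11.3 and 11.6, were almost level. The deposited table of the authors puts it at -1.30 (SE 0.91).

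All 5 measured genes of the mitotic kinases and cyclin B1 had fold changes below 0, uncalled, and the sides of Plk1, Aurkb and Cdk1 overlapped. Aurka, the spindle pole kinase, had 5.29 and 1.57 normalized counts on the positive and 12.6 and 16.2 on the negative side. Ccnb1, cyclin B1, the activator of Cdk1, had 3.02 and 2.35 against 9.45 and 5.40. Neither gene overlapped between the sides, and the authors' deposited table puts Aurka at -1.47 (SE 0.96) and Ccnb1 at -0.91 (SE 1.03). Plk1, the Polo kinase of mitotic entry, had 4.54 and 2.35 against 17.9 and 4.05. Only negative-side library 1 stood well above the others. Aurkb, the kinase of the chromosomal passenger complex, had 26.5 and 1.57 (35 and 2 reads) on the positive and 15.8 and 13.5 on the negative side. The positive-side libraries thus held both its highest and its lowest level, and the log2 fold change in the authors' deposited table was -0.05 (SE 0.92). Cdk1, the kinase that drives mitosis, had 2 and 2 reads against 8 and 1. Summed over the 5 genes, counts were 40.8 and 9.39 against 64.1 and 40.5, a ratio of 2.08. Without positive-side library 2 the ratio was 1.28, and without positive-side library 1 it was 5.57.

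Among 8 genes of the spindle checkpoint and kinetochore, 7 had fold changes below 0. Cenpe (ENSRNOG00000009339), the kinesin motor of the kinetochore, had 10.6 and 3.13 normalized counts (14 and 4 reads) on the positive and 30.5 and 18.9 (29 and 14 reads) on the negative side. The sides were clear of each other, and the authors' deposited table gives -1.48 (SE 0.85, unadjusted p = 0.0818 from DESeq2). Cenpf, a large kinetochore protein, had 16.6 and 3.91 against 25.2 and 8.10 normalized counts. Bub1, a checkpoint kinase, had 0.756 and 12.5 against 6.3 and 13.5, and Bub1b, its relative BubR1, had 0 and 7.83 against 7.35 and 9.45. Tpx2, a spindle assembly factor that activates Aurka, had 6.05 and 13.3 against 8.40 and 6.75. These 4 overlapped, and their log2 fold changes in the authors' deposited table were -0.54, -0.38, -0.66 and 0.25 in the same order, with standard errors of 0.90 to 1.04. Cdc20, an activator of the anaphase-promoting complex, Mad2l1, a checkpoint protein that binds it, and Birc5 (survivin, of the chromosomal passenger complex) had at most 6 reads in any axonal library. The summed counts were 39.3 and 44.6 against 84.0 and 66.2, with a ratio of 1.79 that stayed between 1.58 and 2.00 as each library was left out.

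Of the roles in axons, the G1 genes alone had a higher summed count on the positive side, with sides that overlapped. Those of the helicase and of the mitotic kinases overlapped too. Over all 32 genes the axonal libraries held 292 and 284 normalized counts on the positive and 399 and 378 on the negative side, 1.35 times as many (1.31 to 1.39 with 1 library left out). Without the 4 G1 genes, a division made after the values were seen, the 28 remaining genes had 191 and 158 against 298 and 294, a ratio of 1.70 (1.55 to 1.87). All 20676 genes with a mean in the range of the 32 had a ratio of 1.00. That sum gives more weight to genes of higher mean, whose fold changes in this table lay higher. Only 8 of the 28 had a mean of at least 10, so the sum is not matched to their level. In these bulk samples, fewer cells of a kind and less RNA per cell cannot be told apart.

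**Figure D2:**
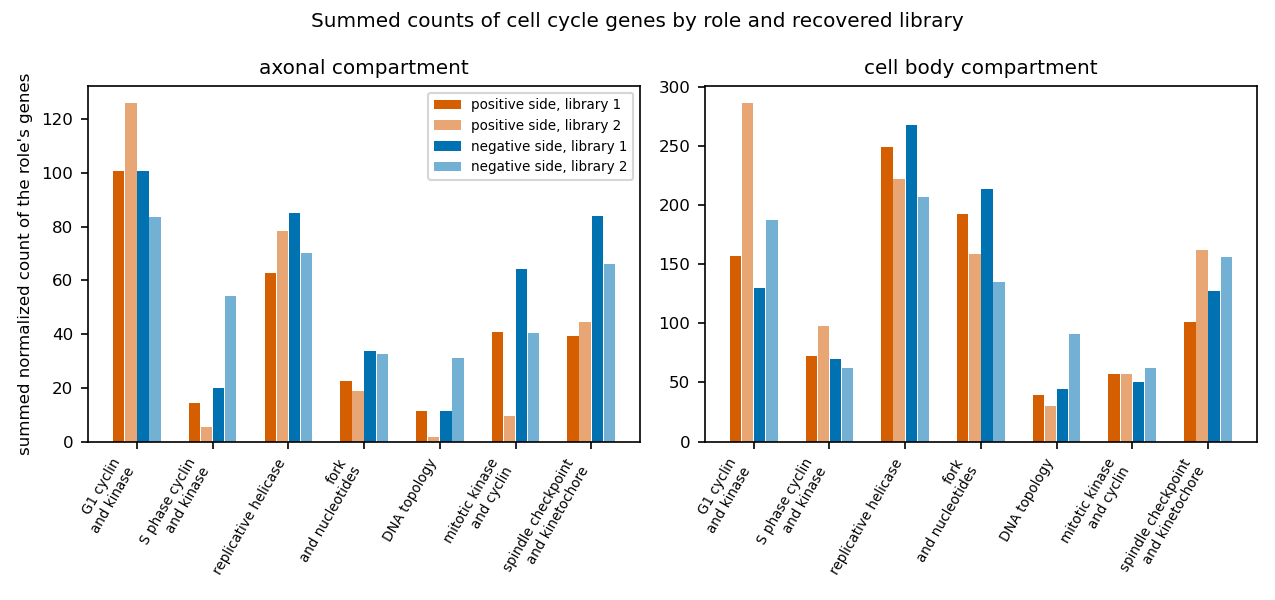
Summed normalized counts of the genes of each role (groups of bars) in the 4 recovered libraries of the axonal (left) and cell body (right) compartment; orange bars are positive-side and blue bars negative-side libraries. In axons both blue bars exceed both orange ones for S phase genes, fork genes, topoisomerase and spindle genes but not for G1 genes, helicase or mitotic kinases, and in soma only topoisomerase has that order.

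Read against the background of the table, the imbalance was of limited size. Where the mean reached 5, in 25 of the genes, 10 had every negative-side library above every positive-side one (Mcm7, Aurka, Cdk2, Ccne2, Cenpe, Ccnb1, Pcna, Top2a, Tyms and Rrm1), against 22.5% of the 12374 recovered genes with such a mean. In the opposite direction there were 2, Cdk6 and Mcm3, against 24.6%, and the other 13 overlapped. The median log2 fold change of the 32 in the authors' deposited table was -0.51, with 24 of 32 below 0 (75%). Over all genes with reads it was -0.13 with 56.3% below 0, and over the 20676 genes in the same range of means -0.18 with 58.2%. Fold changes in this table moved with the mean, which bears on that count. Of genes with a mean of 5 to 10, 64.1% lay below 0, as did 11 of 13 cell cycle genes. From 10 to 20 it was 50.1% of all genes and 7 of 10 cell cycle genes. Above that, from 20 to 60, it was 34.1% of all genes and 0 of 2, Ccnd1 and Mcm4. Restricted to a mean of at least 10, the median in the authors' deposited table was -0.080 over 12 cell cycle genes and 0.15 over all 8032 genes. In 23 of the 32 genes (71.9%) the libraries of 1 side differed from each other by more than the sides did, as in 74.3% of all genes in the range.

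**Figure D3:**
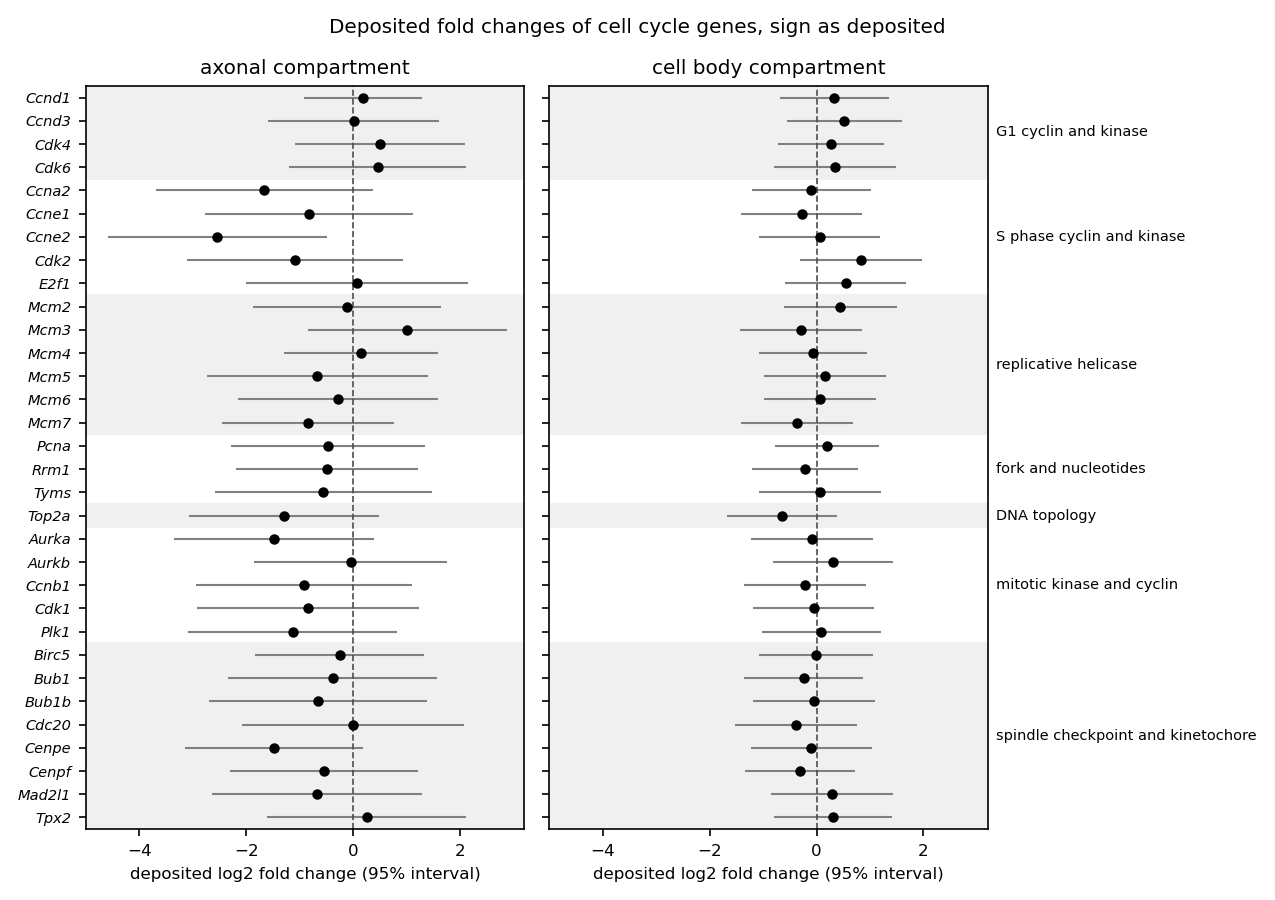
Deposited log2 fold changes (points) with 95% intervals (1.96 standard errors, lines) of the 32 genes in the axonal (left) and cell body (right) table, signs as deposited. Ccne2 in axons, at -2.54, is the only gene whose interval lies wholly to 1 side of 0.

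Other genes of the pathway, from longer lists of replication, mitosis and G1 control, were counted in the same way. Of 43 further replication genes (origin recognition, GINS, polymerases, clamp loader and others), 39 had a row and 0 were called. Of the 39, 23 lay below 0 (59.0%), near the 56.3% of all genes with reads. Their median was -0.30 in the authors' deposited axonal table. None of them had an adjusted p. An unadjusted p under 0.05 (DESeq2) was found for 5 of the 39, against 4.45% of all genes with reads: Cdc6, Mcm10, Orc1 and Uhrf1 below 0 and Rfc4 above it, names given after their values were seen. Such a p was found for 1 of 41 further mitotic genes, below 0, and for 4 of 28 genes of G1 control, 3 above and 1 below 0. Of 53 further mitotic genes (kinesins, condensins, kinetochore and cytokinesis proteins), 41 had a row, none with an adjusted p. Of the 41, 35 lay below 0 (85.4%), with a median of -0.59 in that table, and only 10 had a mean of at least 10. Over all genes, 69.6% lay below 0 at means of 2 to 5, 64.1% at 5 to 10 and 50.1% at 10 to 20. Summed counts of the 41 mitotic genes were 232 and 186 on the positive and 361 and 458 on the negative side. The ratio was 1.96 (1.73 to 2.20 with 1 library left out) and is not matched to their level. Kif11, the kinesin that pushes spindle poles apart, had the smallest p among them: 0.756 and 0.783 against 16.8 and 10.8 normalized counts, or 1 read in each positive-side library and 16 and 8 in the others. In the authors' deposited table it stood at -2.59 (SE 1.01, unadjusted p = 0.0102 from DESeq2, no adjusted p). Divided by the summed size factors of each side, its reads were 18.4-fold higher on the negative side, with an exact 95% counting interval of 4.58 to 161.

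Genes of G1 control and restraint did not follow the mitotic ones. Of 34 listed, 28 had a row, with a median of 0.15 in the authors' deposited axonal table. Of the 28, 16 lay above and 12 below 0 (42.9% below, against 56.3% of all genes with reads). Only 2 had an adjusted p, and 1 was called, Cdkn1a, which encodes p21, an inhibitor of cyclin-dependent kinases induced by p53. Its libraries held 56.7 and 122 normalized counts on the positive and 18.9 and 4.05 on the negative side. That difference stands at 2.57 (SE 0.69, adjusted p = 0.00482, DESeq2) in the authors' deposited table. Ccng1, cyclin G1, also a p53 target, had 119 and 162 against 38.9 and 68.9, without overlap. It did not pass, at 1.3 (SE 0.52, adjusted p = 0.0528, DESeq2) in the authors' deposited table. The p53-induced inhibitor was thus higher on the side where summed S phase and mitotic counts were lower. The sums of the helicase and of the mitotic kinases overlapped between the sides, however. Cdkn1a had a mean of 50.4, and of all genes with a mean of 20 to 60 only 34.1% lay below 0. Whether Cdkn1a and these sums move for a common reason was not tested.

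Of 7 lists of markers of the cells such a compartment could hold, those of astrocytes and fibroblasts had calls in axons, and the other 5 had 0. An adjusted p was given to 8 astrocyte, 3 fibroblast, 4 neuron and 1 progenitor marker. None was given to oligodendrocyte, microglial or endothelial and mural markers, so those lists could hold no call. Over all genes given one, 304 of 1321 were called (23%). All 10 measured astrocyte markers (of 12 listed) lay above 0 in axons and 6 were called. The 8 of them with recovered reads summed to 1113 and 1270 normalized counts on the positive and 268 and 475 on the negative side. The intermediate filament genes Vim and Gfap, those of highest somatic count on the astrocyte list, stood at 2.53 (SE 0.37) and 2.27 (SE 0.44) in the authors' deposited table. Which cells the reads of these genes came from was not tested. Of 11 fibroblast markers 3 lay above 0 and 2 were called, both positive, the collagen genes Col1a1 and Col1a2. The 11 markers summed to 421 and 828 against 215 and 228, although 8 of them lay below 0 and their median was -0.06. Fbn1 (a microfibril protein) and Thy1, those of highest somatic count, stood at -0.38 and -0.06 in the authors' deposited table. The axonal mean of Thy1 there was only 3.58, against a somatic mean of 30.5, and that its reads came from fibroblasts was not tested. Microglial markers went the other way, 9 of 11 below 0 with 90.7 and 32.9 against 140 and 211 normalized counts. The complement genes C1qa and C1qb stood at -1.16 (SE 1.01) and -1.07 (SE 0.99) in the authors' deposited table. All 6 endothelial and mural markers lay below 0 as well, with 34.8 and 15.7 against 75.6 and 52.7, and with Kdr and Pecam1 at -0.22 and -1.60 in the authors' deposited table. Of 8 progenitor markers 6 lay below 0, with a median of -0.52 in the authors' deposited table. Medians of the microglial and of the endothelial and mural markers were -1.07 and -1.18 there. The sums of the progenitor markers were higher on the positive side, at 135 and 144 against 120 and 134. Sox2, a progenitor and glial factor, had 45.4 and 42.3 of these counts against 2.10 and 13.5, and stood at 2.10 (SE 0.79, unadjusted p = 0.00743 from DESeq2, not adjusted there) and Fabp7 at -0.02 in the authors' deposited table. Oligodendrocyte lineage markers had 91.5 and 67.3 against 95.6 and 50, with Cnp at 1.18 and Olig1 at 0.38 in the authors' deposited table. Neuron markers, 9 of 15 with a row, had 584 and 685 against 375 and 821, with Dcx at 0.18 and Tubb3 at -0.64 in the authors' deposited table. None of the measured markers of these 7 lists was at 0 in axons. The 5473 genes without somatic reads took 3.07% and 1.34% of recovered reads on the positive and 6.19% and 5.15% on the negative side. The part of any of these in the cell cycle counts was not tested.

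The second question was whether the cell bodies differed when only axons were treated. None of the 32 genes was called, as 0 of all 18995 genes with reads were (0%, DESeq2 adjusted p under 0.05), and each had an adjusted p of 1.00. At an unadjusted p under 0.05 there were 0 of 32 and 2 of 18995. The fold changes split evenly, 16 below and 16 above 0, with a median of 0.02 in the authors' deposited somatic table (-0.02 over all genes), and ran from -0.64 for Top2a to 0.83 for Cdk2. The 4 G1 genes with a symbol were above 0 there too, uncalled, at 0.27 to 0.52. Ccnd2, the G1 cyclin D2, whose row has no symbol, went the other way in soma, at -0.13 with 179 and 172 normalized counts against 193 and 200, and had stood at 0.48 in axons, in the authors' deposited tables.

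**Figure D4:**
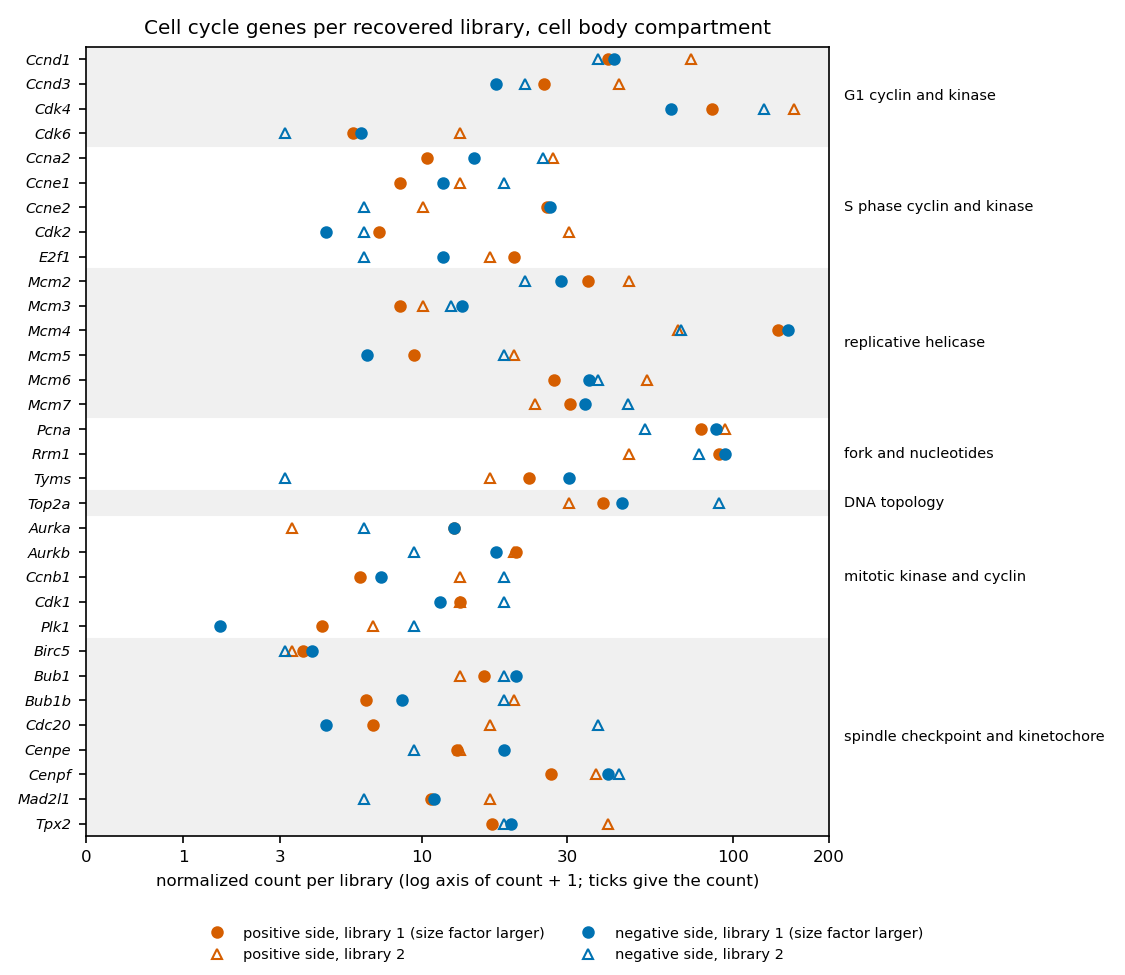
Normalized count of each gene (rows, grouped by role) in the 4 recovered cell body libraries, on a log axis of the count plus 1; colours and marks as in the plot of axonal counts, with filled marks the deep and open marks the shallow libraries. Both blue marks lie right of both orange ones for Top2a and Mcm7, and left of them for Mcm2 and E2f1.

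Among G1 genes in soma, Cdk4 had 85.9 and 155 normalized counts on the positive and 63.9 and 125 on the negative side, Ccnd1 40.4 and 74.1 against 42.2 and 37.5. Ccnd3 had 25.3 and 43.8 against 17.6 and 21.9. Only Ccnd3 had sides that did not overlap, at 0.52 (SE 0.55) in the authors' deposited table. Of the helicase, Mcm4 had 138 and 67.3 against 149 and 68.8, so that libraries of like depth were level and those of a side were not. Mcm2 had 35.0 and 47.1 against 28.6 and 21.9, and Mcm7 30.6 and 23.6 against 34.2 and 46.9. These 2 subunits lay clear of overlap in opposite directions, at 0.45 (SE 0.54) and -0.36 (SE 0.53) in the authors' deposited table. Mcm6 had 27.3 and 53.9 against 35.3 and 37.5.

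In soma Pcna had 79.5 and 94.3 normalized counts on the positive and 88.7 and 53.2 on the negative side, and Rrm1 90.6 and 47.1 against 94.6 and 78.2. Top2a had 39.1 and 30.3 against 44.9 and 90.7 (116 and 9 reads against 168 and 29). Both negative-side libraries of Top2a thus lay above both positive-side ones, an order that 8.63% of recovered genes showed in soma where their mean reached 5. The authors' deposited table gives Top2a -0.64 with an SE of 0.53. Whether its somatic and axonal order go with the same treatment is not known. Cenpf had 26.6 and 37.0 against 40.6 and 43.8, without overlap. Tpx2 had 17.2 and 40.4 against 19.8 and 18.8. The other 20 genes had somatic means of 3.55 to 19.3 in the authors' deposited table. Among them Cdk2 had 7.07 and 30.3 against 4.54 and 6.26 (21 and 9 reads against 17 and 2) and E2f1 20.2 and 16.8 against 11.8 and 6.26. Both had sides that did not overlap.

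Where the somatic mean reached 5, in 31 of the genes, 5 had all negative-side libraries higher (Mcm7, Cenpf, Mcm3, Top2a and Bub1), against 8.63% of 12503 recovered genes. Another 5 had all positive-side libraries higher (Aurkb, Cdk2, Mcm2, E2f1 and Ccnd3), against 8.1%. The remaining 21 overlapped. Within a depth, 17 of the 32 genes had the same sign in the deep and in the shallow pair, 7 positive and 10 negative. The SD of the log2 ratios was 0.434 in the deep and 0.964 in the shallow pair. Summed over the 32 genes, the libraries held 868 and 1014 against 904 and 901 normalized counts, a ratio of 0.959 (0.890 to 1.04 with 1 library left out), and without the G1 genes 711 and 727 against 774 and 713. Further genes were not called either, in 39 replication, 41 mitotic and 28 G1 control genes, with medians of -0.04, -0.06 and -0.17 in the authors' deposited somatic table. The smallest p among them belonged to Pkmyt1, an inhibitory kinase of Cdk1, at 0.75 (SE 0.57), Fen1, the flap endonuclease, at -0.71 (SE 0.58), and Mnat1, a subunit of the Cdk-activating kinase, at -0.62 (SE 0.55), each with adjusted p = 1.00 (DESeq2) in the authors' deposited table. All 7 marker lists had 0 calls in soma, and Cldn5, a defining gene of endothelium, was at 0 there.

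The third question was whether the axonal and somatic fold changes differed from each other. By the difference of the deposited log2 fold changes over its standard error, adjusted over all genes measured in both tables, 0 of the 32 passed, against 6 of 18406 (0.0326%). The test takes both tables to have the same numerator, which is not stated. Ccne2 had the smallest p among the 32, its axonal value lying below its somatic one (axonal minus somatic log2 fold change -2.60, SE 1.2, adjusted p = 1.00, from the deposited DESeq2 values). Cdk2 followed with -1.92 (SE 1.18), from -1.09 in axons and 0.83 in soma in the authors' deposited tables. None of the 32 was thus shown to differ between compartments.

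Finally, each gene was set as a share of its own table, in ppm of the summed deposited means. The tables were normalized separately, so this is a description without a test, and it ignores transcript length, which cancels within a gene. The 32 genes took 161 ppm in axons and 227 in soma. The median ratio of the axonal to the somatic share was 0.698, with 9 of 32 above 1. It was 0.832 over all 18406 genes measured in both, and 0.661 over the 10885 with a somatic mean in the range of the 32. The median of the 32 thus lay close to that of genes of like somatic level.

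Ratios were spread widely within roles, and no difference between roles was tested. The 3 genes of the fork and nucleotide supply had ratios of 0.238 (Pcna), 0.301 (Rrm1) and 0.530 (Tyms), and the helicase a median of 0.621. The 5 genes of the mitotic kinases and cyclin B1 ran from 0.433 for Cdk1 and 0.858 for Ccnb1 through 1.63 (Aurkb, the median) and 1.95 (Aurka) to 2.52 for Plk1. G1 genes ran from 0.309 for Cdk4 to 3.73 for Cdk6, the highest of the 32, with Ccnd1 at 2.23. Cenpe stood at 2.23, and Ccna2 at 0.228, the lowest. The ratio falls with the somatic mean over all genes, from a median of 1.23 for means of 5 to 10 through 0.834 (10 to 20) and 0.608 (20 to 50) to 0.493 (50 to 100) and 0.415 (100 to 200). Against that course, 3 of 3, 7 of 16, 6 of 7, 1 of 3 and 1 of 2 cell cycle genes in these ranges lay above the median. Ccnd1, with a somatic mean of 48.6 in the authors' deposited table, stood farther above its range than any other of the 32 whose somatic mean was 20 or more. Neuron markers had a median ratio of 0.221, astrocyte markers of 0.448 and fibroblast markers of 1.31, though the summed share of the last was 4.04 times the somatic one. The 5 endothelial and mural markers with reads in both tables had a median of 33.2 and a ratio of summed shares of 9.54, on somatic means that add up to 9.04 normalized counts. Their part in the shares of cell cycle genes was not tested.

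**Figure D5:**
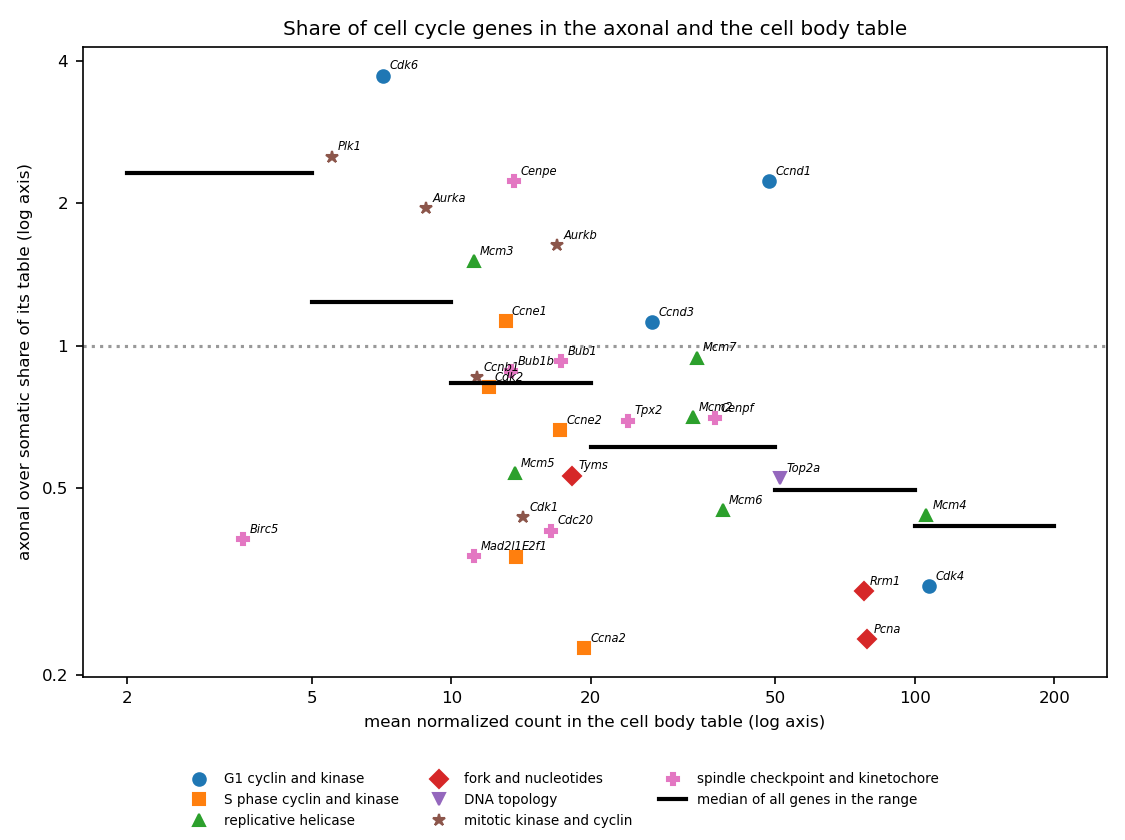
Ratio of the axonal to the somatic share of each gene (points, marked by role) against its mean normalized count in the cell body table, both on log axes; black bars are medians of all genes in ranges of the somatic mean and the dotted line marks equal shares. Ccnd1, Cenpe and Cdk6 lie well above the bars of their ranges, and Pcna, Rrm1 and Ccna2 below.

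Reads of 10 of the genes are uncertain, because RefSeq lists pseudogenes that may share them: 4 for Cdk4, 3 each for Aurka and Pcna, and 1 each for Ccnd3, Cdk1, Mcm2, Mcm4, Mcm7, Rrm1 and Tpx2. How reads that fit several places were counted is not given in the sources used here.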

How the data were processed

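RNA of axonal and cell body compartments was sequenced in 8 samples, 4 groups of 2, assigned by their titles. The tools named in the submitters' processing notes are DESeq2, SAMtools, TopHat2 and Trim Galore, without versions. The counting program, annotation and genome build were not given in the sources used here. The authors deposited 1 table per compartment. Its columns, per the file headers, are the mean of normalized counts of 4 libraries (a signal the authors obtained from counts and size factors), the log2 fold change and its log2 standard error, the deposited Wald score, and deposited p-values, raw and adjusted.

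Calls are the authors' adjusted p under 0.05. The difference between compartments was tested by a two-sided normal p with Benjamini-Hochberg adjustment over all genes measured in both tables, checked on simulated data. Whole reads per library were solved from means of up to 15 digits and under 500. Exactly 1 solution was found for 100% of genes, and none for decoy means. The sign of the recovered sides equalled that of the deposited fold change in 99.7% of axonal and 96.9% of somatic genes with means of 10 to 100. Counts recovered this way were not tested, since their libraries cannot be matched to samples. Deposited fold changes were drawn toward 0 by the authors' fit, as for Ccne2 (-2.54 deposited, -3.76 from recovered side means with a pseudocount of 0.5).

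Counting intervals cover counting error only, and the floor used for Ccna2 covers that of the positive side alone. The members and gene lists were chosen with earlier results of these data known. Every listed gene with a row is named. Values per library are given for means of at least 5 in axons or 20 in soma, other members by range and count or, chosen after their values were seen, in full. Of the further lists, called genes and the 3 of smallest p per table are named. Of the marker lists, the 2 of highest somatic mean are named, and for fibroblasts also the called genes. Alternatives were the set of genes adjusted over, centring, filters on the mean, pseudocounts of 0.5 and 2, scaling, and leaving out each library. Python 3.11.15, numpy 2.4.6, pandas 2.3.3, scipy 1.17.1 and numba 0.67.0 were used.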

Additional observations from a re-analysis of the deposited data

Results flagged for a closer look

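Ccnd2 and Rrm2, listed genes without a symbol in the tables, were found through their Entrez identifiers in RefSeq (GRCr8) and lie outside the counts above. Ccnd2, cyclin D2 (ENSRNOG00000019939), had a mean normalized count of 28.1 in axons and 186 in soma in the authors' deposited tables. Its axonal libraries held 24.2 and 42.3 normalized counts on the positive and 14.7 and 31.1 on the negative side, which overlapped (log2 fold change 0.48, SE 0.72, in the authors' deposited table). In soma it had 179 and 172 against 193 and 200, without overlap, at -0.13 (SE 0.45) in the authors' deposited table. Rrm2, the small subunit of ribonucleotide reductase (ENSRNOG00000023272), had means of 6.06 in axons and 9.86 in soma in the authors' deposited tables. It had 6.80 and 0.783 against 3.15 and 13.5 in axons and 3.03 and 23.6 against 3.47 and 9.38 in soma, overlapping in both. Its log2 fold changes in the authors' deposited tables were -0.69 (SE 1.03) and 0.43 (SE 0.58). Both were noted because they carry reads in rows that no count above uses. Dixon's rule for a sample far from its group was not applied, since groups hold 2 samples.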

How the results depend on the processing

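The count of called genes was 0 in axons, in soma and for the difference under each alternative run. Adjusting over every gene with reads called 52 of 23879 genes in axons, and adjusting over genes with a mean of at least 10 called 81 of 8032. The smallest adjusted p of a cell cycle gene in these 2 runs, from the deposited DESeq2 p-values, was 0.682 and 0.671. The authors' deposited table called 304 of 1321, and centred fold changes 288 of 1321, with only 1 cell cycle gene open to a call in either. In soma 0 of 18995 genes were called after centring and 0 of 11167 at a mean of at least 10, so no gene could stand out there. For the difference, 8 of 7257 genes were called where both means reached 10. The axonal median of -0.51 kept its sign under each alternative. Among genes with means of 10 or more it was -0.080 (12 genes, 7 below 0). It was -0.74 from recovered side means with a pseudocount of 0.5, and -0.82 when these were scaled by total recovered reads. With each axonal library left out it ran from -0.87 to -0.45, and the count below 0 from 20 to 25. The summed count of the 32 genes in axons was 1.45 times higher on the negative side under that scaling, and 1.82 times without the G1 genes. The somatic median ran from -0.12 to 0.21 with a library left out, changing sign, and the somatic count below 0 from 13 to 22 over all settings. The summed somatic ratio ran from 0.890 to 1.04, also crossing 1. These alternatives for counts below 0 and for sums were chosen after seeing the data. The cause of these changes was not tested, beyond the fewer genes left by the filter. No paired analysis was possible because the tables hold no column per sample and recovered libraries carry no replicate number. Depth limits every axonal value: 20 of the 32 genes had a mean under 10, and the median standard error was 0.95.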
